A study of Mus musculus with 4 samples.

Results

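The matrix metalloproteinase genes (Mmp), the genes of their tissue inhibitors (Timp) and the Adamts protease genes were read in skin RNA of mice from a study of hair regrowth. Members were taken by gene symbol: Mmp with a number and at most 1 letter, Timp with 1 digit, or Adamts with a number. This gave 46 of the 25571 genes in the table, made up of 23 Mmp, 4 Timp and 19 Adamts genes. There were 4 libraries, 1 for each group, labelled NC, PRP, MNs and PRP-MNs by treatment. PRP is platelet-rich plasma, a platelet concentrate of blood that carries growth factors, and MNs are microneedles, fine needles that open the outer skin and can deliver a substance. NC, which the labels do not spell out, carries neither name and served as the reference, so that each agent can be set against its absence, alone and beside the other. Where 4 values stand together they are in the order NC, PRP, MNs and PRP-MNs. Strain, age, dose, time of harvest, hair cycle stage and whether a library pooled animals are not stated in the sources used here. With no replicate in any group there was no test, and every difference below compares single libraries.

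Matrix metalloproteinases are zinc-dependent enzymes that are secreted or held at the cell surface as inactive precursors and cut collagens, laminins, elastin and other matrix proteins once activated. TIMP proteins bind the active site and block it. ADAMTS enzymes are secreted relatives with thrombospondin repeats, of which some cut the large proteoglycans aggrecan and versican and others trim procollagens. In skin these genes are known for the turnover of dermis, the remodelling of wounds and the growth of the hair follicle into the dermis.

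The values were FPKM, a fragment count divided by transcript length and by library size, so that levels of different genes can be compared. The spacing of low values put the depth of a library between 15.9 and 19.3 M fragments. On the longest annotated transcript of each member, 3 fragments lay between 0.014 and 0.214 FPKM, a limit that covers counting error only. Keratinocyte, fibroblast and endothelial markers were present in all libraries, as was RNA of skeletal muscle, with Acta1, the muscle actin gene, ranging from 2873 FPKM (NC) to 4958 FPKM (PRP). The summed level of 6 markers of differentiated keratinocytes was 18972 FPKM in NC, 9964 after PRP, 3498 after MNs and 1517 after PRP-MNs. That of 8 monocyte and macrophage markers was 217, 887, 869 and 2705 FPKM in the same order. The makeup of the pieces of skin thus differed between libraries in RNA, and fewer cells of a type and less RNA per cell cannot be told apart in bulk skin.

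Of the 46 genes, 24 reached 5 FPKM in at least 1 library, 7 peaked between 1.01 and 4.64 FPKM, and 12 were detected below 1 FPKM, with maxima from 0.025 to 0.840 FPKM. Mmp7, the gene of matrilysin, Mmp20, that of the enamel protease enamelysin, and Mmp21 were listed at 0 in every library. Of the 31 genes that reached 1 FPKM, 16 were highest in MNs, 12 in PRP-MNs, 2 in NC and 1 in PRP. Among all 14475 genes reaching that level, 28.6% were highest in MNs, 33.9% in PRP-MNs, 26.5% in NC and 11.0% in PRP. NC held the lowest value of 22 of the 31 genes, compared with 41.3% of all genes.

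**Figure D1:**
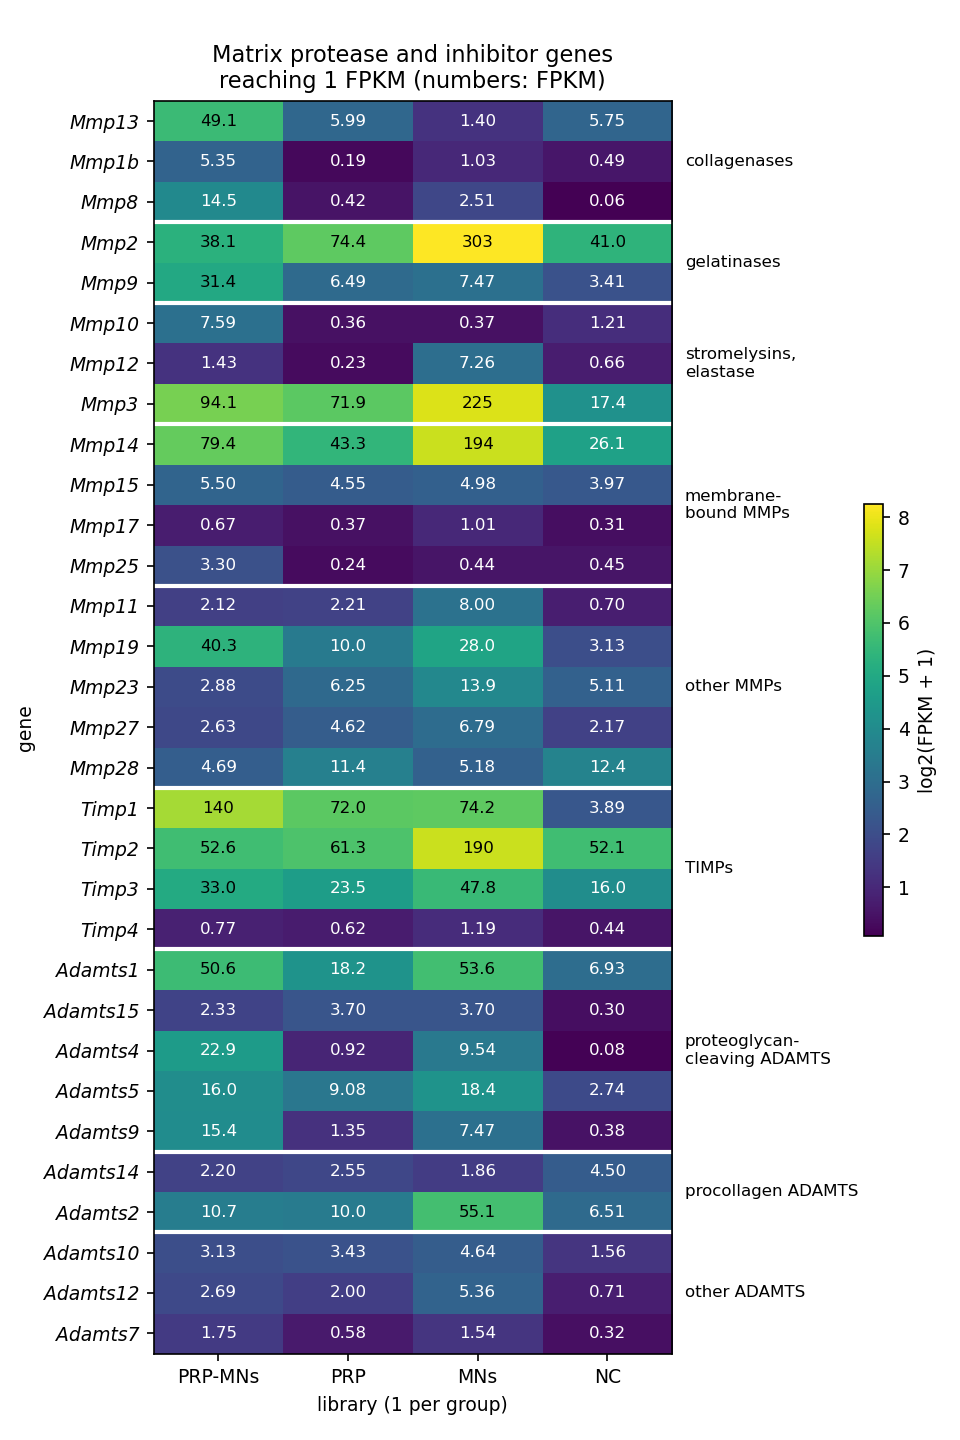
FPKM of the 31 genes that reached 1 FPKM, with 1 row per gene grouped by role and 1 column per library; colour is log2(FPKM + 1) and the numbers are FPKM. Mmp2, Mmp3, Mmp14 and Timp2 were brightest in MNs, from 190 to 303 FPKM, while Mmp13, Mmp8, Mmp9 and Timp1 were brightest in PRP-MNs.

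The inhibitor gene Timp1, the aggrecanase gene Adamts4 and the stromelysin gene Mmp3 were far above NC in both PRP-MNs and MNs. The collagenase gene Mmp13 was high in PRP-MNs and low in MNs, whereas the gelatinase gene Mmp2 and the procollagen protease gene Adamts2 were high in MNs alone. The keratinocyte gene Mmp28 was lower in both. Differences are given as log2 of the ratio of FPKM + 1, a scale that compresses the differences of weakly expressed genes, and a gene was counted as called where it differed at least 2-fold on that scale. A gene entered a comparison if either of its libraries held 1 FPKM or more. In PRP-MNs against NC, 18 of 29 members tested were at least 2-fold higher and 1 was lower, where 17.6% and 11.5% of all genes tested were called in these directions. Of the 29 genes, 10 passed the filter through PRP-MNs alone. Among the 19 at or above 1 FPKM in both libraries, 10 were higher and 1 lower. Here and in the comparisons below, no share of all genes is given for genes present in both libraries. The shares printed are for genes that passed the filter in either library. The median difference was 1.35 for the members tested and 0.14 for all genes tested. In MNs against NC, 20 of 30 members were higher and 2 lower, beside 15.7% and 7.12% of all genes. Centring all genes on their median turned the split of calls among all genes from 2188 higher and 991 lower to 1729 and 1261, and left 19 members higher and 3 lower, whereas scaling to the same FPKM sum gave 2689 and 787, with 22 members higher and 1 lower. In PRP-MNs against NC centring gave 2061 higher and 1933 lower among all genes and 15 members higher and 1 lower. In MNs against NC 11 members passed through MNs alone and 1 through NC alone, and of the 18 present in both, 13 were higher and 2 lower. The median was 1.79 for members and 0.16 for all genes. PRP against NC gave the fewest differences, with 6 of 23 members higher and 0 lower, beside 7.78% and 1.46% of all genes, and medians of 0.77 and 0.04. Of the 18 present in both libraries, 5 were higher and 0 lower. These comparisons share the NC library.

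Between treated libraries, PRP-MNs against PRP gave 10 of 29 members higher and 1 lower, beside 9.54% and 7.5% of all genes, with medians of 0.75 and 0.08. Of these 29, 7 passed the filter through PRP-MNs alone, and among the 22 present in both libraries 5 were higher and 1 lower. PRP-MNs against MNs gave 7 of 31 higher and 9 lower, beside 7.16% and 7.39% of all genes, with medians of −0.20 and −0.02. Among the 27 present in both of these libraries, 5 were higher and 9 lower. The libraries with microneedles therefore held different members at their highest level, as the following groups describe.

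The summed FPKM of the 23 Mmp genes was 124 in NC, 243 after PRP, 811 after MNs and 384 after PRP-MNs. The sum for the 4 Timp genes was 72.4, 157, 314 and 226 FPKM in the same order, and that for the 19 Adamts genes was 25.3, 53.7, 164 and 130 FPKM. MNs was highest and NC lowest in each family. The ratio of Mmp to Timp transcripts was 1.72 in NC, 1.54 after PRP, 2.59 after MNs and 1.70 after PRP-MNs, so that PRP-MNs and NC stood close together although the sums in PRP-MNs were 3.09 and 3.12 times those in NC. The genes behind the sums differed. Mmp2 made up 37.4% of the Mmp sum in MNs, 32.9% in NC and 30.6% in PRP, but 9.93% in PRP-MNs, where Mmp3 led with 24.5%. Mmp13 made up 12.8% of the sum in PRP-MNs and 0.172% in MNs. Among inhibitors, Timp1 made up 5.37% of the Timp sum in NC, 45.8% after PRP, 23.7% after MNs and 61.8% after PRP-MNs.

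**Figure D2:**
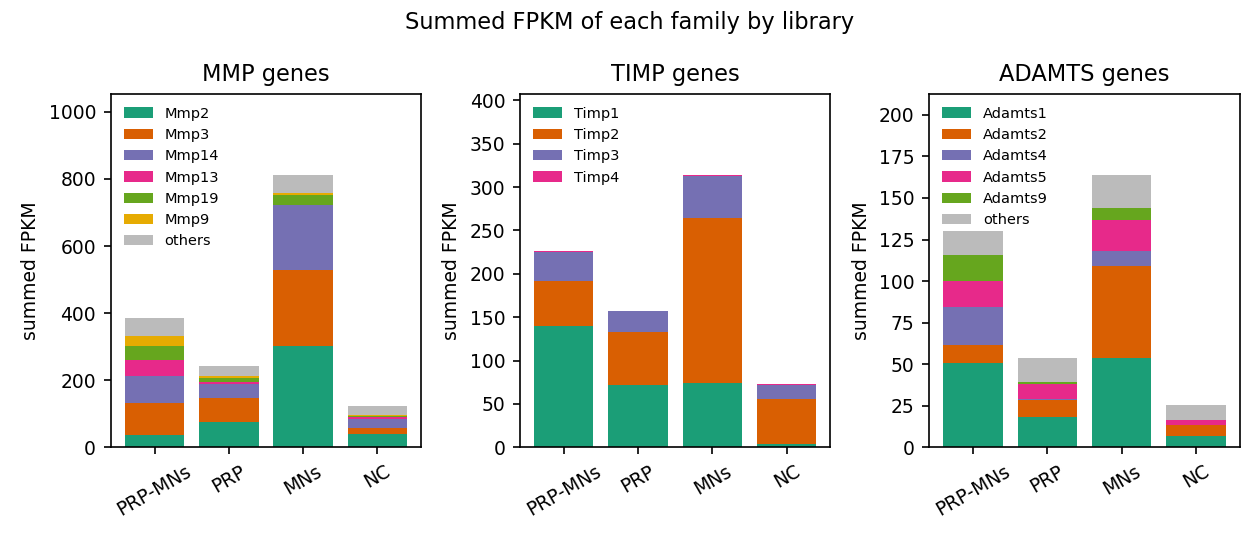
Summed FPKM of the Mmp genes (left), Timp genes (middle) and Adamts genes (right) in each library, with coloured segments for the most abundant genes and grey for the others of the family. The vertical axes start at 0 and differ between panels; the MNs bars are highest, at 811, 314 and 164 FPKM, and the Timp1 segment fills 61.8% of the PRP-MNs bar.

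A block of 10 Mmp genes lies side by side on chromosome 9 from 7272514 to 7699585 of GRCm38, a span of 427 kb, in the order Mmp13, Mmp12, Mmp1b, Mmp3, Mmp1a, Mmp10, Mmp8, Mmp27, Mmp20 and Mmp7. Of these, 7 reached 1 FPKM in at least 1 library. Mmp13, Mmp1b, Mmp10 and Mmp8 were highest in PRP-MNs, whereas Mmp12, Mmp3 and Mmp27 were highest in MNs, and genes of either kind are interspersed along the block. Mmp12 (ENSMUSG00000049723, 7344381 to 7369499) and Mmp1b (ENSMUSG00000041620, 7368239 to 7388047, opposite strand) share 157 exonic bases. No source used here gives the strandedness of the libraries, so values of overlapping genes may be uncertain. Exons of Mmp19 overlap Tmem198b over 789 bases, a gene at 3.71 to 5.49 FPKM, while Mmp19 itself was at 3.13 FPKM in NC. Those of Mmp11 overlap Chchd10 over 155 bases, a gene at 22.2 to 59.4 FPKM. In NC Chchd10 was at 34.9 FPKM and Mmp11 at 0.704. The part of these overlaps in the values was not tested.

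**Figure D3:**
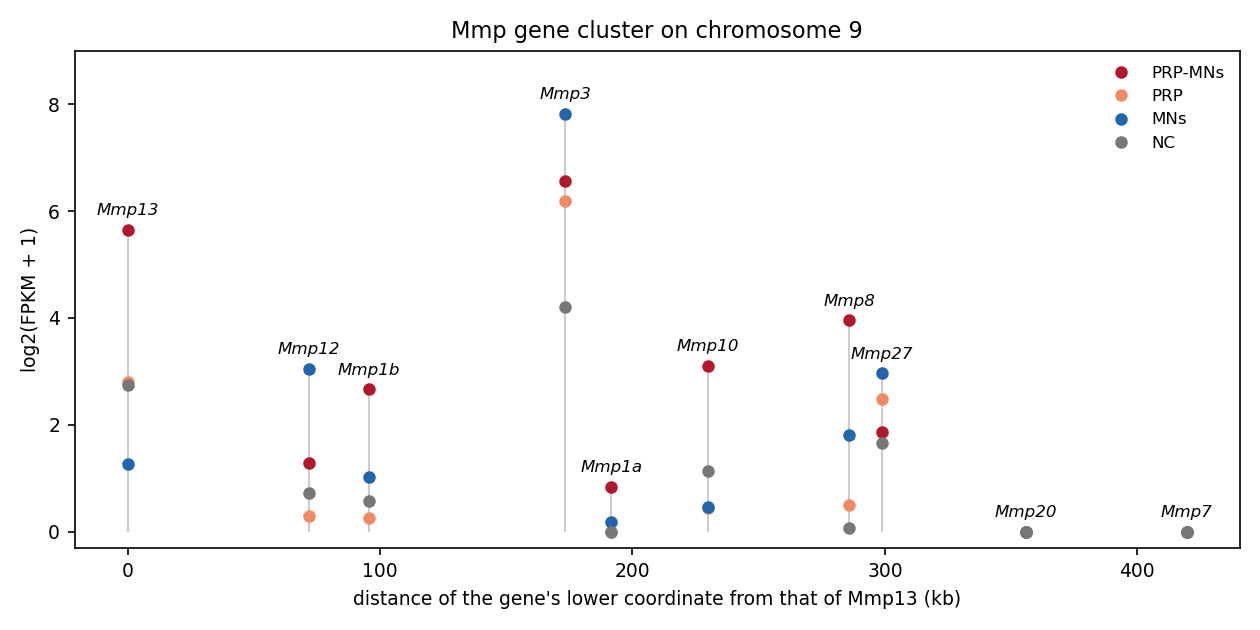
Levels of the 10 Mmp genes of the chromosome 9 block in log2(FPKM + 1), 1 point per library, against the distance in kb of each gene's lower coordinate from that of Mmp13. Mmp3 is the most abundant of the block in each library, the PRP-MNs points are highest for Mmp13, Mmp1b, Mmp10 and Mmp8, and Mmp20 and Mmp7 lie at 0.

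RefSeq promoter sequences matched 32 of the 46 genes, with 35 start sites. Unmatched genes, among them Mmp2, Mmp9, Mmp19, Adamts4 and Adamts5, were not searched. The AP-1 motif was searched as TGAGTCA or TGACTCA, which are reverse complements of each other so that both strands are covered, in the 250 bases before each start. It was found for 7 of the 10 genes of the chromosome 9 block (Mmp13, Mmp12, Mmp1b, Mmp3, Mmp1a, Mmp10 and Mmp7) and for 0 of the 22 matched genes elsewhere, beside 4.46% of all 32851 promoters in the table. A gene was counted if any of its listed starts had the motif, whereas the 4.46% counts each promoter. Both Mmp12 and Mmp7 also have a listed start without the motif in its window. For Mmp12 that window, chr9:7344147-7344396, is the one at the annotated gene start of 7344381. The Mmp12 start with the motif lies inside the gene. Mmp10 and Mmp13, highest in PRP-MNs, and Mmp3 and Mmp12, highest in MNs, are shown. All have the motif at a listed start, and their levels take different orders across the libraries. The letters run 5′ to 3′ on the plus strand and end at the base before the start of transcription, and capitals mark the AP-1 letters. The windows are chr9:7272264-7272513 for Mmp13, chr9:7502092-7502341 for Mmp10, chr9:7445572-7445821 for Mmp3 and chr9:7347124-7347373 for Mmp12, on GRCm38.p6. The motif begins 35, 63, 46 and 44 bases before the start in that order.
Mmp13: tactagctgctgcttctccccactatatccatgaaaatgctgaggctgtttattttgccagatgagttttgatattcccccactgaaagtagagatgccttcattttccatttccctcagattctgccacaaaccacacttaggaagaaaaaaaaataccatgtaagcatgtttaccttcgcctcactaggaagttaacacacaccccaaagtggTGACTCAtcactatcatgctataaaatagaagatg
Mmp10: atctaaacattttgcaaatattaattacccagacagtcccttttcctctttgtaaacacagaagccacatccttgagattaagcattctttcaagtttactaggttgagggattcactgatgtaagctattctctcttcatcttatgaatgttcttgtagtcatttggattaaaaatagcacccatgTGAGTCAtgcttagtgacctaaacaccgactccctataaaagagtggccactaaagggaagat
Mmp3: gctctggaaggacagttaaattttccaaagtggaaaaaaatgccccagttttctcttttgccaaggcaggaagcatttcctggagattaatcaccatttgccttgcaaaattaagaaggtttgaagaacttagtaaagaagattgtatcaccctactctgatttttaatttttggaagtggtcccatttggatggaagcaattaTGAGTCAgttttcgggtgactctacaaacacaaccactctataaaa
Mmp12: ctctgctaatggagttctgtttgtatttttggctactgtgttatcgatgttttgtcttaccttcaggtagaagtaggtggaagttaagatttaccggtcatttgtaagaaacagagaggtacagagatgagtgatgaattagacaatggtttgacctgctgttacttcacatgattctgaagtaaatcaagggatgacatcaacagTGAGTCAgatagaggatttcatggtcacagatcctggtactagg

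A match describes these letters only and is not evidence of binding. Mmp8 and Mmp27 lack the letters in this window. Mmp8 was high with Mmp13 in PRP-MNs, and Mmp27 was high with Mmp3 in MNs. Any part of AP-1 in these levels was not tested. Mmp7, with the motif, was listed at 0 in every library, where 3 fragments would correspond to at most 0.177 FPKM. Mmp13 (ENSMUSG00000050578) spans 7272514 to 7283331, Mmp10 (ENSMUSG00000047562) 7502352 to 7510240 and Mmp3 (ENSMUSG00000043613) 7445822 to 7455975 on the plus strand of chromosome 9. Outside the block, Mmp2 (ENSMUSG00000031740) lies on chromosome 8 from 92827291 to 92853420, Mmp9 (ENSMUSG00000017737) on chromosome 2 from 164940780 to 164955850, Mmp14 (ENSMUSG00000000957) on chromosome 14 from 54431612 to 54445364 and Timp1 (ENSMUSG00000001131) on chromosome X from 20870166 to 20874735. Adamts1 (ENSMUSG00000022893, 85793827 to 85803113) and Adamts5 (ENSMUSG00000022894, 85856173 to 85901828) are neighbours on chromosome 16. They had the same library order, which members on other chromosomes also took, among them Mmp3, Mmp14, Timp3 and Adamts12.

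Collagenases cut the triple helix of fibrillar collagens. In the mouse this role is carried mainly by Mmp13, with Mmp8, the collagenase stored by neutrophils, and the rodent genes Mmp1a and Mmp1b beside it. Mmp13 stood at 5.75 FPKM in NC, 5.99 after PRP, 1.40 after MNs and 49.1 after PRP-MNs. PRP-MNs was thus high, PRP and NC were alike, and MNs was the lowest, with differences of 2.89 for PRP-MNs and −1.49 for MNs against NC. Mmp8 stood at 0.057 FPKM in NC, 0.423 after PRP, 2.51 after MNs and 14.5 after PRP-MNs. Its NC value lay under the 3-fragment limit of 0.064 FPKM. Mmp1b was at 0.495 FPKM in NC, 0.190 after PRP, 1.03 after MNs and 5.35 after PRP-MNs. Mmp1a reached 0.788 FPKM in PRP-MNs and 0.135 in MNs, and both other libraries list it at 0. Each collagenase gene was therefore highest in PRP-MNs, and the 4 together summed to 69.8 FPKM there, against 5.07 to 6.60 elsewhere. Mmp1a and Mmp1b are close relatives, and fragments shared between them would leave their values uncertain. The 11 neutrophil markers also summed highest in PRP-MNs, at 1006 FPKM, and their part in the collagenase values was not tested.

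Gelatinases cut denatured collagen and collagen IV, and their 2 genes went separate ways. Mmp2, made broadly by fibroblasts, stood at 41.0 FPKM in NC, 74.4 after PRP, 303 after MNs and 38.1 after PRP-MNs. MNs was far above the other libraries, by 2.86 over NC and with a difference of −2.96 between PRP-MNs and MNs, while PRP-MNs and NC differed by −0.10. Mmp9, which neutrophils, macrophages and activated keratinocytes make, stood at 3.41 FPKM in NC, 6.49 after PRP, 7.47 after MNs and 31.4 after PRP-MNs. Here PRP-MNs was above each other library, by 2.88 over NC, 2.12 over PRP and 1.94 over MNs.

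Stromelysins cut proteoglycans and laminin and can activate other precursors. Mmp3 (stromelysin-1) stood at 17.4 FPKM in NC, 71.9 after PRP, 225 after MNs and 94.1 after PRP-MNs, so that all treated libraries were above NC, by 1.99 for PRP, 3.62 for MNs and 2.37 for PRP-MNs. Its relative Mmp10 (stromelysin-2), known from keratinocytes at wound edges, stood at 1.21 FPKM in NC, 0.363 after PRP, 0.371 after MNs and 7.59 after PRP-MNs. PRP-MNs was alone above 5 FPKM, 2.66 above PRP and 2.65 above MNs. Mmp12, the macrophage elastase gene, was at 0.662 FPKM in NC, 0.235 after PRP, 7.26 after MNs and 1.43 after PRP-MNs. It was highest in MNs, and the monocyte and macrophage markers summed highest in PRP-MNs. The largest of them there were Lyz2 (1326 FPKM) and Ly6c2 (651 FPKM). Those markers did not share a single order of libraries. Mrc1, a receptor of resident and repair-type macrophages, was also highest in MNs, at 131 FPKM compared with 62.4 in PRP-MNs, 21.6 in PRP and 9.63 in NC. Csf1r was highest in MNs too, at 46.0 FPKM compared with 39.3 in PRP-MNs. The others were highest in PRP-MNs, Adgre1 only narrowly (37.3 FPKM compared with 35.2 in MNs). The part of macrophage makeup in the Mmp12 values was not tested.

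Of the 6 membrane-bound metalloproteinase genes, Mmp14 was the most abundant. It encodes MT1-MMP, which activates the MMP2 precursor at the cell surface, and stood at 26.1 FPKM in NC, 43.3 after PRP, 194 after MNs and 79.4 after PRP-MNs. MNs was highest, as for Mmp2, but PRP-MNs was also above NC, by 1.57. Mmp15 varied little, at 3.97, 4.55, 4.98 and 5.50 FPKM. Mmp25, a lipid-anchored enzyme of leukocytes, was at 0.450 FPKM in NC, 0.241 after PRP, 0.442 after MNs and 3.30 after PRP-MNs, and so was called higher in PRP-MNs in each of its comparisons. The others, Mmp16, Mmp17 and Mmp24, did not exceed 1.01 FPKM in any library.

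Among the remaining Mmp genes, Mmp19, which is expressed in vessels, macrophages and keratinocytes, stood at 3.13 FPKM in NC, 10.02 after PRP, 28.0 after MNs and 40.3 after PRP-MNs. All treated libraries were at least 2-fold above NC. Mmp11, a stromal gene of tissue remodelling, was at 0.704, 2.21, 8.0 and 2.12 FPKM. Mmp23 followed with 5.11, 6.25, 13.9 and 2.88 FPKM, and Mmp27 with 2.17, 4.62, 6.79 and 2.63 FPKM. These last 3 genes were all highest in MNs and differed by −1.53, −1.95 and −1.10 in PRP-MNs against MNs. Mmp28, which encodes epilysin, a metalloproteinase of keratinocytes, went the other way, at 12.4 FPKM in NC, 11.4 after PRP, 5.18 after MNs and 4.69 after PRP-MNs. It was lower in both libraries with microneedles, by −1.23 and −1.11 against NC, the second of which became −0.94 once libraries were scaled to the same FPKM sum. The markers of differentiated keratinocytes summed to the same order of libraries, and their part in the Mmp28 values was not tested. Exons of Mmp28 share 466 bases with 1700020L24Rik on the opposite strand, which took the same order of libraries at 9.56, 8.32, 3.50 and 2.97 FPKM, so that fragments of these genes may not be told apart.

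The inhibitors also differed among themselves. Timp1, which inflammatory signals induce, stood at 3.89 FPKM in NC, 72.0 after PRP, 74.2 after MNs and 139.6 after PRP-MNs, a difference of 4.85 between PRP-MNs and NC. On the scale used no other member was as far above NC there, but with a pseudocount of 0.1 FPKM Adamts4 (6.98) and Mmp8 (6.55) exceeded Timp1 (5.13). NC was far below the treated libraries, whose values lay within 0.94 of each other. Timp2, which most cells make steadily and which joins MT1-MMP in activating MMP2, stood at 52.1 FPKM in NC, 61.3 after PRP, 190 after MNs and 52.6 after PRP-MNs, so that MNs alone stood out. Timp3, a matrix-bound inhibitor that also blocks ADAMTS enzymes, stood at 16.0, 23.5, 47.8 and 33.0 FPKM. Its difference of 1.00 between PRP-MNs and NC lay at the threshold and became 0.86 once all genes were centred. Timp4, named here to complete the family, stayed between 0.440 FPKM in NC and 1.19 in MNs.

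All 5 proteoglycan-cleaving Adamts genes that reached 1 FPKM were at least 2-fold above NC in both PRP-MNs and MNs, beside 17.6% and 15.7% of all genes. For Adamts4, Adamts9 and Adamts15 the filter was passed through the treated library alone, which favours that outcome, and Adamts1 and Adamts5 were above 1 FPKM in NC too. Adamts1, the most abundant, stood at 6.93 FPKM in NC, 18.2 after PRP, 53.6 after MNs and 50.6 after PRP-MNs. Its chromosomal neighbour Adamts5, the aggrecanase gene, followed the same order at 2.74, 9.08, 18.4 and 16.0 FPKM. Both libraries with microneedles were alike for these genes, with differences of −0.08 and −0.20. Adamts4, an aggrecanase gene that cytokines induce, stood at 0.082 FPKM in NC, 0.919 after PRP, 9.54 after MNs and 22.9 after PRP-MNs. Adamts9, a versican-cleaving enzyme gene, stood at 0.384, 1.35, 7.47 and 15.4 FPKM. Both were highest in PRP-MNs, second in MNs and near the bottom in the libraries without microneedles. Adamts15 was at 0.303, 3.70, 3.70 and 2.33 FPKM, about level in PRP and MNs. Adamts8 and Adamts20, of the same group, stayed below 1 FPKM.

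Among procollagen-processing genes, Adamts2, which removes the N-terminal propeptide of fibrillar procollagens, stood at 6.51 FPKM in NC, 10.05 after PRP, 55.1 after MNs and 10.7 after PRP-MNs. MNs was alone high, 2.90 above NC, and PRP-MNs differed from MNs by −2.27. Adamts14, a relative with the same activity that was named after its values were seen, was highest in NC, at 4.50 FPKM compared with 1.86 to 2.55 in the others. Of the other Adamts genes, Adamts12 was at 0.705, 2.0, 5.36 and 2.69 FPKM, Adamts10, known for its part in fibrillin microfibrils, at 1.56, 3.43, 4.64 and 3.13 FPKM, and Adamts7 at 0.319, 0.576, 1.54 and 1.75 FPKM. Adamts12 was called higher against NC in both MNs (1.90) and PRP-MNs (1.11), Adamts7 in PRP-MNs (1.06) and Adamts10 in MNs (1.14). Among genes below 1 FPKM, Adamts13 and Adamts19 were listed at 0 except in MNs (0.025 and 0.056 FPKM), Adamts16 at 0 in PRP-MNs, and Mmp24 at 0 in PRP-MNs and MNs. With all genes centred, the PRP-MNs calls of Adamts12 and Adamts7 (0.97 and 0.92) and the MNs call of Adamts10 (0.98) were lost, while the MNs call of Adamts12 was kept (1.74).

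The microneedle difference without PRP (MNs against NC) and with PRP (PRP-MNs against PRP) share no library and were set side by side for the 31 genes. Here a gene entered if any library reached 1 FPKM, and the shares are of the 14475 genes that did so. In both, 5 genes were at least 2-fold higher, namely Mmp8, Mmp19, Adamts1, Adamts4 and Adamts9, beside 5.04% of all genes. Another 15 were higher without PRP and within 2-fold with PRP, which is 48.4% of the 31, beside 9.4% of all genes. These included Mmp2 (2.86 without and −0.95 with PRP), Mmp3 (3.62 and 0.38), Mmp14 (2.85 and 0.86), Adamts2 (2.90 and 0.08) and Timp2 (1.85 and −0.22). For some genes this place depends on the scale. With PRP, Mmp12 (0.98) and Timp1 (0.94) passed 2-fold once libraries were scaled to the same FPKM sum (1.03 and 1.06). Centring all genes took Mmp2 with PRP to −1.02 and Adamts10 without PRP to 0.98. A further 4, Mmp9, Mmp10, Mmp25 and Mmp1b, were higher with PRP and within 2-fold without it, beside 4.01% of all genes. Mmp25 was under 1 FPKM in both MNs (0.442) and NC (0.450) and so was not tested in MNs against NC. Its place within 2-fold without PRP rests on those low values. Mmp9 lay near the threshold without PRP, at 0.94, and passed it under 3 alternatives (1.07 to 1.11), and Mmp10 without PRP became −1.47 with a pseudocount of 0.1 FPKM, so that membership of this class depends on the scale for both. Mmp10 differed by 2.66 with PRP and −0.69 without. Mmp13 was called in opposite directions, 2.84 higher with PRP and −1.49 without, beside 0.09% of all genes. Another 0.68% of all genes were called the other way round. Whether these pairs of differences differ could not be tested with single libraries.

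**Figure D4:**
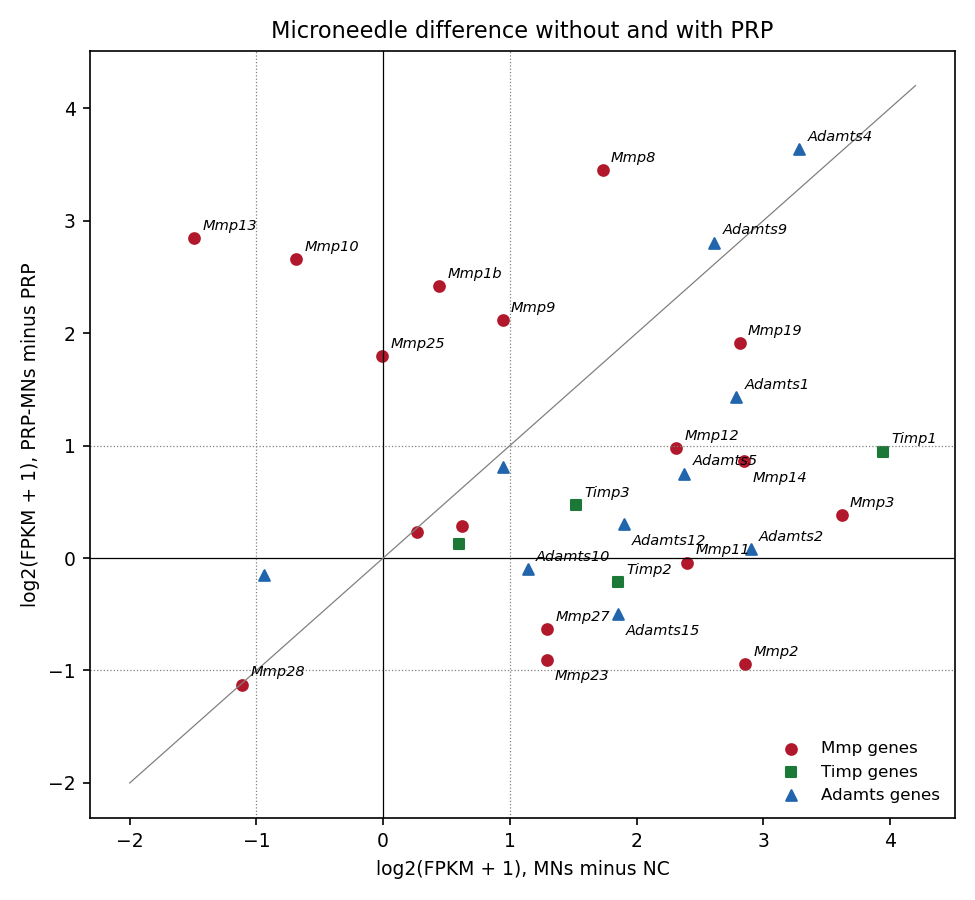
Microneedle difference in log2(FPKM + 1) without PRP (MNs minus NC, horizontal) and with PRP (PRP-MNs minus PRP, vertical) for the 31 genes; dotted lines mark 2-fold, the diagonal marks equal differences, and genes past 2-fold on an axis are named. Mmp13 and Mmp10 lie at the upper left, and Mmp2 at the lower right, at 2.86 and −0.95. Mmp1b lies at 0.44 and 2.42, lower on the vertical axis than Adamts4, Mmp8, Mmp13, Adamts9 and Mmp10. Mmp3 and Adamts2 lie far to the right and just above the horizontal zero line, at 0.38 and 0.08 on the vertical axis.

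Marker levels that moved with these groups were read alongside, and the single markers named were chosen after their values were seen. Of 11 neutrophil markers, 6 reached 1 FPKM in PRP-MNs, 5 in PRP and in MNs, and 4 in NC, and their sum was 235, 406, 181 and 1006 FPKM, most of it from S100a8 and S100a9, which keratinocytes also make. Csf3r, the receptor gene for the granulocyte growth factor, was at 0.736, 10.1, 15.9 and 89.5 FPKM. The granule genes Mpo and Elane, which neutrophils transcribe mainly while still immature, did not exceed 0.133 FPKM. Mpo was listed at 0 in PRP-MNs, PRP and NC, Elane in PRP, MNs and NC, and Ly6g, a defining surface marker, in PRP and NC, with 1.19 FPKM in PRP-MNs. PRP-MNs was thus highest for Csf3r, as for Mmp8, Mmp9 and Mmp25. The 8 fibroblast markers summed to 222, 318, 695 and 264 FPKM, with all 8 above 1 FPKM in each library, and MNs was highest, as for Mmp2, Mmp14, Timp2 and Adamts2. Each marker but Mfap5 was highest in MNs, and Mfap5 was highest in NC (23.1 FPKM, compared with 22.0 in MNs). The fibroblast receptor gene Pdgfra was at 4.75 FPKM in NC, 15.6 after PRP, 59.8 after MNs and 45.6 after PRP-MNs. The fibroblast markers did not move together in PRP-MNs against NC, where 3 of 8 were higher (Pdgfra by 3.02, Fbn1 by 1.71 and Col6a2 by 1.13) and Pi16 was lower (−1.72), with Dpep1 at −0.75, Dpt at −0.53, Mfap5 at −0.21 and Col6a1 at 0.98. The 6 endothelial markers summed to 18.5, 53.8, 106 and 166 FPKM, the order of Adamts4, Adamts9 and Mmp19 across the libraries. Pecam1, Cdh5, Kdr and Emcn took that order too. Tek (10.3 FPKM in MNs and 7.89 in PRP-MNs) and Tie1 (10.9 and 9.45) were highest in MNs instead. The part of these cell types in the results was not tested.

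Genes that act with the proteases were taken as lists. Of 16 activators, inhibitors and receptors, 13 were tested in PRP-MNs against NC, and 6 were at least 2-fold higher and 0 lower (median 0.88), beside 17.6% and 11.5% of all genes. Plaur, the receptor of urokinase, stood at 2.78 FPKM in NC, 6.21 after PRP, 21.03 after MNs and 110 after PRP-MNs. Lrp1, an endocytic receptor that clears MMP and TIMP complexes, was at 9.46, 23.4, 111 and 46.2 FPKM. Tfpi2, a protease inhibitor of the matrix, was at 0.522, 2.11, 3.43 and 4.04 FPKM. The membrane inhibitor gene Reck, added after its values were seen, was at 3.17, 3.98, 9.44 and 2.81 FPKM. In MNs 9 of 13 were higher (median 1.54), beside 15.7% of all genes, and in PRP 3 of 13 (median 0.38), beside 7.78%. The shares of all genes for these comparisons apply to the counts of the lists that follow as well. Plasminogen itself (Plg) did not exceed 0.061 FPKM.

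Of 11 Adam genes, which encode membrane-anchored relatives, 9 were tested, and in PRP-MNs 5 lay above NC by the 2-fold rule and 0 below (median 1.02), beside 17.6% and 11.5% of all genes. Adam8, a leukocyte gene, stood at 7.74 FPKM in NC, 11.7 after PRP, 17.6 after MNs and 101 after PRP-MNs, and Adam12, a gene of activated stroma, at 0.400, 1.27, 4.26 and 8.54 FPKM. Adam9 was at 16.6, 24.1, 42.3 and 45.8 FPKM and Adam15 at 18.8, 30.2, 49.6 and 41.5 FPKM. In MNs 5 of 9 were higher and 0 lower (median 1.09), and in PRP 0 of 9 were called. The Adamts-like genes, which lack the protease domain, gave no call in PRP-MNs or PRP among the 4 tested, and 1 of 5 was higher in MNs. Those furthest from NC in PRP-MNs were Adamtsl1 (0.95), Papln (−0.85), Adamtsl5 (0.45) and Adamtsl4 (−0.06).

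Among substrates, all 6 fibrillar collagen genes tested were higher in MNs than in NC (median 3.17), 5 of 6 in PRP (median 1.07) and 2 of 6 in PRP-MNs (median 0.36). In PRP-MNs the furthest from NC were Col5a3 (1.96), Col5a2 (1.72), Col3a1 (0.36) and Col5a1 (0.35). Col1a1, named after its values were seen, stood at 120 FPKM in NC, 259 after PRP, 1589 after MNs and 139 after PRP-MNs, the library order of Mmp2 except at its lower end. Cathepsin K (Ctsk), a collagen-cutting protease that was also named after its values were seen, was at 28.9, 81.2, 434 and 31.6 FPKM. Of 8 cathepsin genes, 7 were tested, with 3 higher in PRP-MNs, 4 in PRP and 4 in MNs against NC. In PRP-MNs the largest differences were those of Ctss (4.10), Ctsz (3.18), Ctsb (2.28) and Ctsd (0.75).

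Of 5 proteoglycan genes tested, 2 were higher in PRP-MNs, 3 in PRP and 5 in MNs. Vcan, which encodes versican, a substrate of several ADAMTS enzymes, stood at 1.33 FPKM in NC, 8.57 after PRP, 16.3 after MNs and 45.3 after PRP-MNs. The order of the libraries was that of Adamts4 and Adamts9. Bgn (2.33), Lum (0.34) and Fmod (0.06) followed in PRP-MNs against NC, while aggrecan (Acan) did not exceed 0.082 FPKM. Of 13 basement membrane genes tested in PRP-MNs, 7 were higher and 4 lower, beside 17.6% and 11.5% of all genes. In MNs 5 of 14 were higher and 1 lower, and in PRP 3 of 14 were higher and 0 lower. Vessel-rich Col4a1 (3.48) and Col4a2 (3.16) and the perlecan gene Hspg2 (2.30) were higher, and Col7a1, of the anchoring fibrils under the epidermis, was lower (−1.89).

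Many Mmp promoters hold a site for AP-1, the dimer of Fos and Jun proteins. Among 12 AP-1, ETS and RUNX factor genes, 4 were higher and 2 lower in PRP-MNs against NC (median 0.66), beside 17.6% and 11.5% of all genes. Runx1 stood at 1.83 FPKM in NC, 3.80 after PRP, 8.26 after MNs and 25.6 after PRP-MNs, Ets1 at 3.13, 7.09, 11.1 and 17.5 FPKM, and Fos at 16.1, 29.2, 37.4 and 58.9 FPKM. Fosb was highest in NC, at 31.2, 6.71, 17.0 and 3.55 FPKM. The AP-1 genes thus shared no single direction. In MNs 4 were higher and 1 lower, and in PRP 0 of 11 were higher and 2 lower.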

How the data were processed

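Skin RNA of mice was sequenced in 4 libraries, 1 for each group. Library preparation used the NEBNext Ultra kit and 1 μg of RNA, per the labels' protocols. Per the submitters' processing notes, the genome build named is GRCm38. No source used here names the aligner, quantifier or annotation. The authors' deposited values are FPKM per gene for 25571 genes, including 3535 assembled gene models. FPKM is scaled within a library, so abundant genes can shift all others.

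Members were found by symbol, and coordinates and transcript lengths came from GENCODE M21 (GRCm38). The members and lists were chosen with earlier results of these data known. The differences were of log2(FPKM + 1) between single libraries, over genes that reached 1 FPKM in either library, and a difference of at least 2-fold was called. Named were members reaching 5 FPKM in at least 1 library, those between 1 and 5 FPKM that were called in a comparison, and from each list of related genes up to 4 members with the largest difference between PRP-MNs and NC. Trdc, a T cell marker, was not analysed here. Some genes that this rule would name are not reported here. T cell, platelet, mast cell, adipocyte, pericyte and basal keratinocyte markers were also read.

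Depth was estimated from genes with 1 annotated transcript, whose low values fall on steps. The share of low values within 0.02 of a step was 34.8% to 38.7% across libraries, and even steps prevailed, so a fragment was taken as 2 steps. Most values did not give whole fragments, so count models were not used. The alternatives were a pseudocount of 0.1 FPKM, no filter, a filter at 5 FPKM, 2 rescalings to the same FPKM sum (with and without mitochondrial genes) and centring on the median of all genes. The calculations were tested on simulated data. Python 3.11.15, pandas 2.3.3 and numpy 2.4.6 were used.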

Additional observations from a re-analysis of the deposited data

Results flagged for a closer look

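The microneedle difference of Mmp13 was called in opposite directions. It was 2.84 (log2) with PRP, PRP-MNs against PRP, and −1.49 without PRP, MNs against NC. Of all 14475 genes, 13 were called in these directions and 98 the other way round.

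The PRP difference of Mmp3 also changed direction. It was −1.25 with microneedles, PRP-MNs against MNs, and 1.99 without them, PRP against NC. No share of all genes is given for this PRP difference. With 1 library per group neither contrast was tested, and on the log2(FPKM + 1) scale no other member was called in opposite directions in this way. With a pseudocount of 0.1 FPKM, Mmp10 (4.05 with PRP and −1.47 without) and Mmp23 (−1.09 and 1.43) also were for microneedles. For PRP, Mmp10 (4.03 with microneedles and −1.50 without), Mmp11 (−1.87 and 1.52) and Mmp27 (−1.33 and 1.06) were. Centring added Mmp2 for microneedles (−1.02 with PRP and 2.70 without). The sample-to-sample check for outlying values needs at least 4 samples in a group and was not possible.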

How the results depend on the processing

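No paired analysis was possible because each group had 1 library and the labels give no replicate numbers; for the same reason no library could be left out. Each median over members kept its sign under the 6 alternatives. A count of members has no sign to reverse, so it could only grow or shrink. With a pseudocount of 0.1 FPKM, the median of PRP-MNs against NC was 2.15, PRP against NC gave 11 members higher and 1 lower, MNs against NC gave 4 lower and PRP-MNs against PRP 2 lower. Without a filter the medians were 0.69 over 41 members (PRP-MNs against NC) and 0.94 over 43 (MNs against NC), and with a filter at 5 FPKM they were 2.13 and 2.39 over 20 each; these filters change which genes are tested. Scaling to the same FPKM sum, with or without mitochondrial genes, left 1 member lower in MNs against NC, and centring gave 2 lower in PRP-MNs against PRP; the cause was not tested. Equal sums shifted the all-gene median from 0.14 to 0.29 in PRP-MNs against NC, from 0.16 to 0.34 in MNs against NC and from 0.08 to 0.18 in PRP-MNs against PRP. Over all genes, a pseudocount of 0.1 gave 1644 higher and 432 lower in PRP against NC, compared with 1053 and 197, and a filter at 5 FPKM gave 130 lower. Of 133 differences of 28 named members, 15 passed 2-fold and none lost it with the pseudocount of 0.1, 4 passed and 1 lost it with each rescaling, and 1 passed and 4 lost it with centring. Low genes are limited by depth: 3 fragments are 0.155 to 0.189 FPKM on a transcript of 1 kb.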

Other observations

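Among marker lists not described with the proteases, mast cell genes were highest in MNs, with Mcpt4, a mast cell chymase that can itself cut matrix, at 12.8 FPKM in NC, 24.6 after PRP, 56.6 after MNs and 10.8 after PRP-MNs. The 5 mast cell markers summed to 34.9, 68.5, 150 and 41.9 FPKM in the same order, which placed MNs first as it did for Mmp2 and Adamts2. The 5 pericyte and smooth muscle markers summed to 36.2, 107, 246 and 157 FPKM, and the 6 adipocyte markers to 388, 874, 1128 and 880 FPKM. The 6 basal keratinocyte markers summed to 6547, 5753, 5400 and 2861 FPKM, with Krt15 alone at 78.3, 63.0, 313 and 12.6 FPKM. The 3 T cell markers read summed to 24.1, 13.1, 4.89 and 5.71 FPKM. Of 5 platelet markers, Pf4 (21.7, 70.9, 161 and 236 FPKM) and Ppbp (0.315, 0.738, 6.06 and 56.1 FPKM) were highest in PRP-MNs. The platelet integrin gene Itga2b was not, at 1.11, 2.72, 2.72 and 1.37 FPKM, and the platelet receptor genes Gp9 and Gp1bb did not exceed 0.644 FPKM in any library.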
